A study of Mus musculus with 2 samples.

Results

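The insulin-like growth factor system was described here through 10 genes of the hippocampus at 10 days of age, out of 55536 annotated genes. They were chosen by symbol for their roles and not by their values, though earlier results of these data were known. The genes are the ligands Igf1 and Igf2, the non-coding RNA H19 that neighbours Igf2, and the receptors Igf1r and Insr. The others are the binding proteins Igfbp2, Igfbp3, Igfbp4, Igfbp5 and Igfbp6. Hippocampal total RNA of B6CASTF1/J pups was sequenced; these are F1 animals of a cross between C57BL/6J and CAST/EiJ, and the labels name no treatment. There was 1 group with 2 biological replicates, labelled male, and the labels name 3 males for each library without saying whether they were pooled. Nothing in the labels says that the replicates came from separate litters.

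IGF1 and IGF2 are secreted peptides that signal through the receptor tyrosine kinase IGF1R, and IGF2 also through the insulin receptor. Secreted IGF-binding proteins hold the ligands outside the cell and either limit or prolong their action. Igf2 and H19 are a textbook imprinted pair that share regulatory DNA, Igf2 being read mainly from the paternal and H19 from the maternal copy. In rodent brain Igf2 is known from the meninges and the choroid plexus, Igf1 from neurons and microglia. Alleles were not analysed here.

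The tables held 32035705 expected counts in replicate 1 and 29747193 in replicate 2. Both libraries are labelled male, and the sex-linked genes of replicate 2 went against its label. Xist stood at 25 counts in replicate 1, against 30841 in replicate 2. The Y-linked genes Ddx3y, Eif2s3y, Kdm5d and Uty had 764 to 2164 counts in replicate 1 and 0 to 2 in replicate 2. Every difference between the libraries below is therefore also a difference between libraries of unlike sex-linked expression, and the tests set 1 library's reads against the other's and compare no conditions. All 7 excitatory neuron markers of the hippocampus were detected in both libraries, at a TPM of at least 1, and so were all 8 GABAergic neuron markers. These are bulk samples, so fewer cells of a type and less RNA per cell cannot be told apart.

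Summed over all annotated transcripts, Igf2 had the highest level of the 10 genes, followed by 3 binding proteins, and both receptors stood above Igf1. On the TPM scale, which corrects for transcript length and depth, the mean levels ran from Igf2 at 86.7 ± 18.6 over Igfbp2 at 48.3 ± 1.03, Igfbp4 at 42.2 ± 0.523, Igfbp5 at 35.7 ± 2.44 and Insr at 20.9 ± 0.785 to Igf1r at 15.5 ± 0.134 (SD, n = 2). Below them stood Igfbp3 at 11.3 ± 2.32, Igf1 at 8.91 ± 0.0424, H19 at 4.57 ± 1.24 and Igfbp6 at 1.00 ± 0.580 TPM (SD, n = 2). No neighbours in this order overlapped between their libraries in the alignment-based gene table. By the second deposited route, which estimates transcripts from the FASTQ file, Igfbp3 and Igf1 overlapped and the other neighbours did not. Part of this order rests on short transcripts, as set out per gene below. Summed over the coding transcripts of at least 1000 bases, a choice made after seeing the data, Igf2 stood at 57.31 TPM in replicate 1 and 46.05 in replicate 2, and Igfbp2 at 45.01 and 44.49. On the FASTQ-based values of the same transcripts the 2 genes overlapped, with Igf2 at 78.5 and 63.9 TPM in replicates 1 and 2 and Igfbp2 at 69.8 and 72.3. Igfbp4 then stood below Igfbp5, at 18.29 TPM in replicate 1 and 20.72 in replicate 2, and the libraries of Igfbp3 overlapped those of both receptors. Over all transcripts and set against the 13062 nuclear protein-coding genes detected in both libraries, Igf2 was above 91.8% of them, Igfbp2 above 82.7%, Igf1r above 49.5% and Igf1 above 33.0%.

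**Figure D1:**
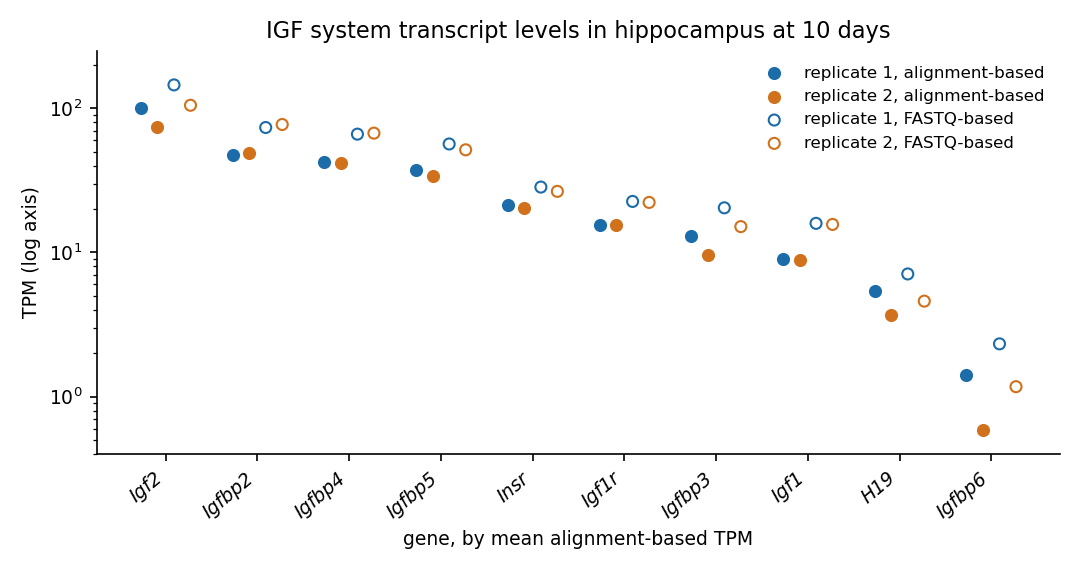
TPM of the 10 genes on a log axis, ordered by mean alignment-based TPM; filled points are the alignment-based and open points the FASTQ-based values, blue for replicate 1 and orange for replicate 2. Igf2 stands highest at 99.88 and 73.54 TPM and Igfbp6 lowest at 1.41 and 0.59, and the FASTQ-based points lie above the alignment-based ones for each gene.

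Between the libraries, 0 of the 9 members that averaged 100 counts or more differed by at least 2-fold at an adjusted p under 0.05, against 0.303% of the 12879 genes tested. By the adjusted p alone, 6 of the 9 passed, against 11.8% of all genes tested: 5 were higher in replicate 1, against 5.5% of all genes, and 1 was lower, against 6.28%. The unadjusted p was under 0.05 for the same number, 6 of 9, against 23.0% of all genes tested. The FASTQ-based counts gave 5 members past the adjusted p against 11.9% of all genes and 0 at 2-fold against 0.249%, and a count minimum of 10 gave 6 of 10 against 8.78% and 0 against 0.946%. The test was a two-sided exact binomial test of the scaled counts with Benjamini-Hochberg adjustment over all genes tested, and it covers counting error only. The members' median log2 ratio of replicate 1 over replicate 2 was 0.13 and their median absolute ratio 0.15, beside -0.00027 and 0.07 over all genes tested. The 95th percentile of the absolute log2 ratio over all genes tested was 0.31, and 3 tested members, H19, Igfbp3 and Igf2, lay past it.

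**Figure D2:**
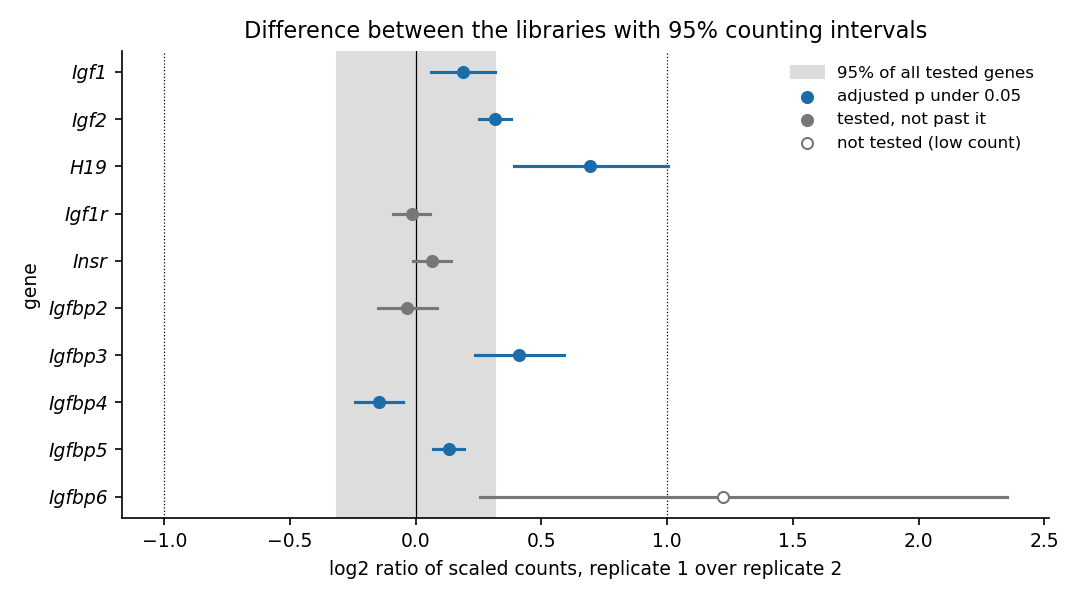
Log2 ratio of scaled counts, replicate 1 over replicate 2, for each of the 10 genes; lines are exact 95% counting intervals, the grey band spans the central 95% of all genes tested by absolute ratio, and dotted lines mark 2-fold. H19 at 0.69, Igfbp3 at 0.41 and, at its edge, Igf2 at 0.32 lie to the right of the band, the intervals of the receptors and Igfbp2 include 0, and the open point is Igfbp6, which was not tested.

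Igf2 encodes the growth factor best known from fetal growth and lies on chromosome 7 (142650766 to 142666816, minus strand, mm10). It had 4747.07 expected counts and 99.88 TPM in replicate 1, against 3526.31 counts and 73.54 TPM in replicate 2. It was higher in replicate 1, with a log2 ratio of 0.32, an exact 95% counting interval of 0.25 to 0.38, and an adjusted p of 6.43e-21 by the exact binomial test. The read-through gene Gm49394 overlaps Igf2 on the same strand and took 22.93 counts in replicate 1 and 4.69 in replicate 2, so counts shared with it are few beside those of Igf2. The antisense gene Igf2os overlaps Igf2 by 7124 bases and had 15 counts in replicate 1 and 8 in replicate 2, and no source used here states whether counting used strand.

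Igf1, the ligand tied to growth hormone in the body and made locally in the brain, lies on chromosome 10 (87858265 to 87937042, plus strand). It had 1116 counts in replicate 1 and 907 in replicate 2, and 8.94 TPM in replicate 1 and 8.88 in replicate 2. The scaled counts were higher in replicate 1, with a log2 ratio of 0.19, an interval of 0.06 to 0.31 and an adjusted p of 0.0375 by the exact binomial test, while the TPM values were nearly equal. The split of its counts over transcripts of unlike length differed between the libraries, as given below. The adjusted p was 0.0707 when all genes with a count were tested.

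H19 is a spliced long non-coding RNA on chromosome 7 (142575529 to 142578143, minus strand), with 72622 bases between it and Igf2. It had 247 counts and 5.44 TPM in replicate 1, against 141 counts and 3.69 TPM in replicate 2. It was higher in replicate 1 by a log2 ratio of 0.69, with an interval of 0.39 to 1.00 and an adjusted p of 9.73e-05 by the exact binomial test, the largest ratio among the 9 tested members. Within each library Igf2 stood far above H19, by 4.17 on the log2 TPM scale in replicate 1 and 4.28 in replicate 2. The mean of that pair ratio was 4.23 ± 0.08 (SD, n = 2), while Igf2 over Igf1 was 3.47 in replicate 1 and 3.04 in replicate 2, with a mean of 3.25 ± 0.31. Which pair differed more between the libraries depended on the scale. On TPM the ratio of Igf2 over H19 was lower in replicate 1 by a difference of -0.11 and that of Igf2 over Igf1 higher by 0.43, but on scaled counts the differences were -0.38 and 0.13. These differences were not tested. The TPM ratios include the short Igf2 transcripts described below. Over coding or long non-coding transcripts of at least 1000 bases, Igf2 stood at 57.31 TPM in replicate 1 and 46.05 in replicate 2. On that sum H19 stood at 5.45 and 3.69 TPM in replicates 1 and 2, and Igf1 at 8.69 and 7.84.

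Each of the Igf2 and H19 genes hosts a microRNA gene, and the mature sequences from RefSeq (GRCm38.p6) are shown because the host transcripts are the only trace of them in these data. Capitals mark the seed, bases 2 to 8, and none of the 4 seeds is shared. The miR-675 hairpin of 84 bases lies inside an exon of 3 H19 transcripts, H19-202 among them, and the miR-483 hairpin of 73 bases lies in an intron of 7 Igf2 transcripts.
mmu-miR-675-5p: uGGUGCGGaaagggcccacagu
mmu-miR-675-3p: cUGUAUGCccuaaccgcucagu
mmu-miR-483-5p: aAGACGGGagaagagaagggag
mmu-miR-483-3p: uCACUCCUccccucccgucuu
Both hairpin genes are listed at 0 counts in both libraries with an effective length of 0, so these tables hold no measure of them. H19-202, the form that contains the miR-675 hairpin, held 235.43 of the 247 H19 counts in replicate 1 and 119.94 of the 141 in replicate 2.

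Transcript tables split Igf2 over 9 annotated transcripts with different first exons, and the 2 routes placed the reads differently. Igf2-201 and Igf2-202, which share the first exon at 142657388 to 142657496, held 64.4% of the alignment-based Igf2 counts in replicate 1 and 69.2% in replicate 2, but 28.9% and 31.1% of the FASTQ-based counts. Igf2-204 and Igf2-206, with the first exon at 142660932 to 142661305, held 2.56% and 0.441% of the alignment-based counts in replicates 1 and 2, but 40.4% and 40.2% of the FASTQ-based ones. The routes were close for Igf2-205, with the first exon at 142658364 to 142659489, at 22.6% and 21.1% of counts in replicates 1 and 2 by alignment and 24.0% and 23.3% from the FASTQ files. On the TPM scale the first pair took 45.3% and 51.5% in replicates 1 and 2 by alignment, against 19.6% and 22.8% from the FASTQ files. By alignment the counts of Igf2-204 and Igf2-206 together were 121.61 in replicate 1 and 15.56 in replicate 2. In percentage points, the shares of the first and second pair lay nearer each other between the libraries than between the routes. The leading start of Igf2 is therefore uncertain in these files, and which route is nearer the truth was not tested.

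**Figure D3:**
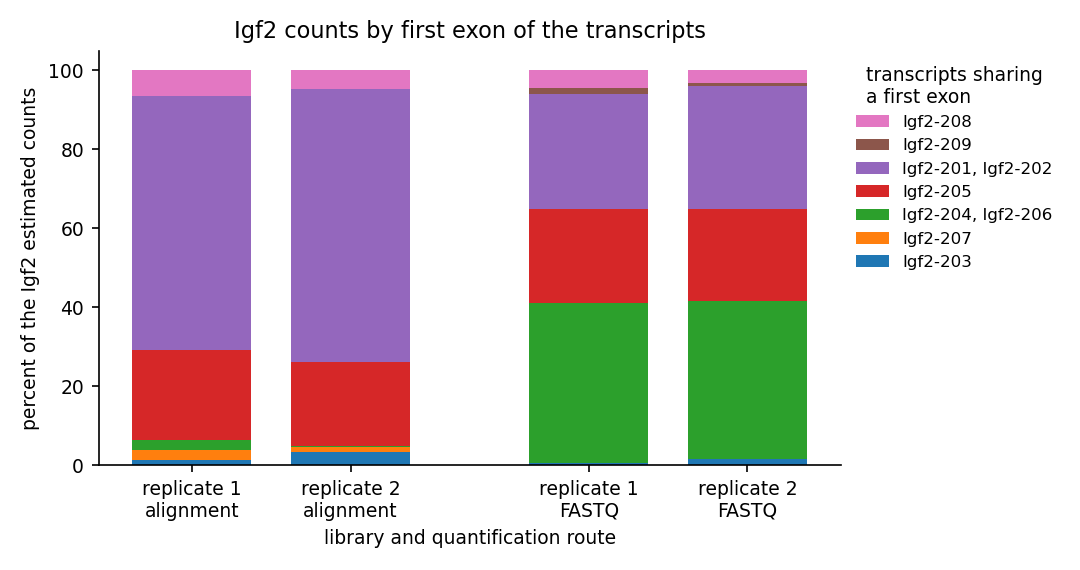
Percent of the estimated Igf2 counts held by transcripts that share a first exon, stacked for each library and quantification route; colours from bottom to top run from the farthest upstream start to the most downstream one. Igf2-201 and Igf2-202 hold 64.4% and 69.2% by alignment, while Igf2-204 and Igf2-206 hold 40.4% and 40.2% from the FASTQ files.

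Short Igf2 transcripts held large shares of TPM on few counts. Igf2-207, a transcript of 376 bases, had 118.73 counts and 19.77 TPM in replicate 1 and 37.01 counts and 6.63 TPM in replicate 2 by alignment, and 0 by the FASTQ route. Igf2-209, of 462 bases, had 86.7 FASTQ-based counts and 36.7 TPM in replicate 1 and 33.2 counts and 15.3 TPM in replicate 2, against 0 and 2.16 counts by alignment. Igf2-203, which starts farthest upstream at 142666816 and is 650 bases long, went the other way from the gene: it had 69.67 counts in replicate 1 and 122.31 in replicate 2 by alignment, and 32.8 and 57.9 from the FASTQ files. It is the 1 Igf2 transcript whose estimated counts were lower in replicate 1 by both routes.

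The RefSeq (GRCm38.p6) promoter windows with a start in the first exon of Igf2-201 and Igf2-202, or of Igf2-204 and Igf2-206, are printed. The routes disagree between these exons. The downstream RefSeq start, 142657496, is the outer end of its exon. The upstream RefSeq start, 142661271, lies inside the exon at 142660932 to 142661305 and not at its end. Each window runs from 250 bases before the RefSeq start to 50 after it, 5′ to 3′ on the minus strand. Capitals mark the Sp1-type GC box GGGCGG and the CCAAT box, searched on both strands together with the TATA box TATAAA; these do not overlap each other.
Igf2 start 142657496, chr7:142657447-142657746, minus strand: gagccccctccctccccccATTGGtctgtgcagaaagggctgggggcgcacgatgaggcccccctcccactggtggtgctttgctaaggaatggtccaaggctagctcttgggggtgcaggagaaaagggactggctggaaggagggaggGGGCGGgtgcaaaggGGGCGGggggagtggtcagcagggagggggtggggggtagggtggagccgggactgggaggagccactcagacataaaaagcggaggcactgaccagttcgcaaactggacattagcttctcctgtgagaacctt
Igf2 start 142661271, chr7:142661222-142661521, minus strand: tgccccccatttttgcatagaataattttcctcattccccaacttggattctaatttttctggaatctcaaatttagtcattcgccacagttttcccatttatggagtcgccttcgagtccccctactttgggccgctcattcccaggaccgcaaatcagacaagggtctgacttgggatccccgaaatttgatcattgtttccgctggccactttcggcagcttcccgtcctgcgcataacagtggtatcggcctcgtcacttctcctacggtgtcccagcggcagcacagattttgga
The downstream window held 2 matches to GGGCGG and 1 to CCAAT in reverse, and the upstream window held none of the 3 motifs. Among 32851 RefSeq promoter windows of the same length, 35.7% held GGGCGG, 37.4% CCAAT and 13.6% TATAAA. The downstream window was 63.3% G and C with 7 CpG sites and the upstream one 49.7% with 14, against a median of 52.7% over all windows. A match describes the letters and is not a bound site.

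Most Igf1 counts were assigned to transcripts with 1 of its 2 alternative leading exons and without the alternative tail exon. Transcripts with the upstream leader, Igf1-202, Igf1-203 and Igf1-207, held 1103.14 counts in replicate 1 and 887.41 in replicate 2, which is 98.8% and 97.8% of the Igf1 counts. On the TPM scale they held 94.7% and 86.4% by alignment, against 71.2% and 62.3% from the FASTQ files. The 5 transcripts of the other leader are all shorter than the 7052 bases of Igf1-202. Igf1-202 alone runs to 87937042, and every other annotated Igf1 transcript ends at 87931801 or before. Reads of that 3′ end would be assigned to Igf1-202 whichever leader or tail the RNA carried. The counts therefore give no ratio of leaders or tails. The alternative tail is set by an exon of 52 bases (chr10:87915298-87915349, plus strand), whose inclusion gives the rodent prohormone form Eb instead of Ea. Its sequence, from the GENCODE M21 transcripts, is shown in lower case with nothing marked.
Igf1 alternative exon: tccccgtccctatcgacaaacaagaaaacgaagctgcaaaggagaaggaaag
Transcripts with this exon held 44.87 counts and 1.48 TPM in replicate 1, against 58.33 counts and 2.51 TPM in replicate 2. Transcripts that skip it held 1062.46 counts and 7.28 TPM in replicate 1, against 840.52 counts and 6.18 TPM in replicate 2. Igf1-201, which ends in an extended form of the exon, was placed in neither group. It held 8.68 counts in replicate 1 and 8.16 in replicate 2. The including transcripts thus took 16.6% of the Igf1 TPM in replicate 1 and 28.3% in replicate 2, and 14.8% and 26.0% by the FASTQ route. On counts the shares were 4.02% and 6.43% in replicates 1 and 2 by alignment, against 0.891% and 1.87% by the FASTQ route. The routes used different transcripts, since Igf1-203 had 41.85 counts in replicate 1 and 46.89 in replicate 2 by alignment and 0 from the FASTQ files. By both routes the share was lower in replicate 1, on 58.33 estimated counts or fewer in each library, and no test was made on shares.

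Neither receptor passed the test between the libraries. Igf1r, the main receptor of both ligands, lies on chromosome 7 (67952827 to 68233668, plus strand). It had 3092 counts and 15.38 TPM in replicate 1 and 2892 counts and 15.57 TPM in replicate 2, with a log2 ratio of -0.02, an interval of -0.09 to 0.06 and an adjusted p of 0.872 by the exact binomial test. Insr, the insulin receptor, lies on chromosome 8 (3122061 to 3279617, minus strand). It had 2937 counts and 21.46 TPM in replicate 1 and 2599 counts and 20.35 TPM in replicate 2, with a log2 ratio of 0.06, an interval of -0.01 to 0.14 and an adjusted p of 0.343 by the same exact test. Within the libraries Igf1r stood below Insr by -0.48 on the log2 TPM scale in replicate 1 and -0.38 in replicate 2. That gap came with the shorter Insr transcripts: the full-length coding forms were close, with Igf1r-201 at 11.98 TPM in replicate 1 and 12.05 in replicate 2, and Insr-201 at 12.82 and 12.09. Igf2r, the scavenger receptor that clears IGF2 and is not among the 10 genes, had 12.43 TPM in replicate 1 and 11.81 in replicate 2. That was below Igf1r summed over all its transcripts in both libraries. Against Igf1r-201 alone, Igf2r was slightly above in replicate 1 and slightly below in replicate 2.

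The Insr gene has an exon of 36 bases, exon 11, whose skipping gives the isoform A receptor known to bind IGF2 more tightly than isoform B. The exon (chr8:3181702-3181737, minus strand) is shown because the split of the isoforms turns on it.
Insr exon 11: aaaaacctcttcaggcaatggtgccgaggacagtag
Insr-201, which skips it, held 2572.01 counts and 12.82 TPM in replicate 1, against 2253.78 counts and 12.09 TPM in replicate 2. Insr-203, a fragment of 672 bases that contains it, held 11.45 counts in replicate 1 and 0 in replicate 2, and 7.95 and 0 from the FASTQ files. Nearly all counts assigned to a spliced form across the exon were thus on the skipping transcript in both libraries and by both routes. The annotation holds no full-length transcript with the exon, so reads of such an RNA outside the exon and its flanks would be assigned to Insr-201 and these counts give no isoform ratio. The unspliced Insr-204, which runs over the exon as part of a retained intron, had 150 counts in replicate 1 and 139 in replicate 2. Insr-202, a retained-intron transcript of the 5′ end, took 27.8% of the Insr TPM in replicate 1 and 31.9% in replicate 2 on 203.54 and 206.22 counts. For Igf1r the coding transcript Igf1r-201 held 77.9% of the TPM in replicate 1 and 77.4% in replicate 2, and the other 5 annotated transcripts are retained introns.

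The binding proteins summed to more TPM than the ligands or the receptors. Their sum was 141.94 TPM in replicate 1 and 135.11 in replicate 2, beside 108.82 and 82.42 for the 2 ligands and 36.84 and 35.92 for the 2 receptors. The ratio of binding proteins to ligands was 1.30 in replicate 1 and 1.64 in replicate 2, and that of binding proteins to receptors was 3.85 and 3.76. Of the binding protein TPM, Igfbp2 held 33.5% in replicate 1 and 36.3% in replicate 2, Igfbp4 30.0% and 31.0%, and Igfbp5 26.4% and 25.2%. Igfbp3 held 9.10% and 7.13%, and Igfbp6 0.993% and 0.437%. The FASTQ route gave the same order of shares in both libraries. These sums include the short Igf2 and Igfbp4 transcripts.

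Igfbp2 and Igfbp5 are neighbours on chromosome 1, with 5457 bases between their 3′ ends. Igfbp2 (72824503 to 72852474, plus strand), a binding protein abundant in fetal tissue and brain, had 1228 counts and 47.55 TPM in replicate 1 and 1163 counts and 49.01 TPM in replicate 2. Its log2 ratio was -0.03, with an interval of -0.15 to 0.08 and an adjusted p of 0.815 by the exact binomial test. Igfbp5 (72857932 to 72874884, minus strand), which also binds extracellular matrix, had 4791 counts and 37.47 TPM in replicate 1, against 4047 counts and 34.02 TPM in replicate 2. It was higher in replicate 1 by a log2 ratio of 0.13, with an interval of 0.07 to 0.19 and an adjusted p of 0.000489 by the exact test. Igfbp5 over Igfbp2 stood at -0.34 on the log2 TPM scale in replicate 1 and -0.53 in replicate 2.

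Igfbp3 and Igfbp4 lie on chromosome 11 and differed between the libraries in opposite directions. Igfbp3 (7206086 to 7213923, minus strand), the main IGF carrier of serum, had 644 counts and 12.92 TPM in replicate 1, against 448 counts and 9.64 TPM in replicate 2. It was higher in replicate 1 by a log2 ratio of 0.41, with an interval of 0.23 to 0.59 and an adjusted p of 9.67e-05 by the exact binomial test. Igfbp4 (99041244 to 99054392, plus strand), known as an inhibitor of IGF action, had 1803 counts in replicate 1 and 1845 in replicate 2. It was lower in replicate 1, with a log2 ratio of -0.15, an interval of -0.24 to -0.05 and an adjusted p of 0.0243 by the exact test. That call was lost on the FASTQ-based counts, with a log2 ratio of -0.12 and an adjusted p of 0.0927 by the exact test, and its TPM was 42.59 in replicate 1 and 41.85 in replicate 2.

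The full-length coding transcript of Igfbp4 held most of the gene's counts but less of its TPM. Igfbp4-201 held 82.1% of the gene's alignment-based counts in replicate 1 and 84.4% in replicate 2, but 42.9% and 49.5% of its TPM. The non-coding Igfbp4-203, of 785 bases, had 273.34 counts and 18.38 TPM in replicate 1 and 272.47 counts and 19.72 TPM in replicate 2 by alignment, and 0 from the FASTQ files. The FASTQ route instead gave the non-coding Igfbp4-202, of 799 bases, 31.7 TPM in replicate 1 and 33.8 in replicate 2, against 0 and 0.73 by alignment. Both routes thus put a large share of the Igfbp4 TPM on a short non-coding transcript, but on a different one, so the place of Igfbp4 in the order of levels rests on transcripts whose assignment is uncertain. Igfbp2-201, Igfbp3-201 and Igfbp5-201 were the leading transcripts of their genes with 90.8% or more of the TPM in each library.

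Igfbp6 (chromosome 15, 102144362 to 102149511, plus strand), a binding protein that prefers IGF2, was the lowest member. It had 31 counts and 1.41 TPM in replicate 1, against 12 counts and 0.59 TPM in replicate 2, under the count minimum of 100 for the test. Its log2 ratio was 1.22 with an exact 95% counting interval of 0.25 to 2.35. With the minimum lowered to 10, its adjusted p was 0.0842 by the exact binomial test.

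Of the 56 other genes of the pathway and the locus, 38 were tested and 0 were called at 2-fold, against 0.303% of all genes tested. By the adjusted p alone 6 were higher in replicate 1, against 5.5% of all genes, and 2 were lower, against 6.28%, while 14 had an unadjusted p under 0.05, against 23.0%. Their median log2 ratio was 0.04. Of 15 extracellular and receptor partners, 9 were detected and 1 of the 10 tested passed. That was Htra1, a secreted protease that cleaves IGF-binding proteins, with 4319 counts and 107.94 TPM in replicate 1 against 3376 counts and 89.93 TPM in replicate 2, a log2 ratio of 0.24 and an adjusted p of 1.67e-11 by the exact binomial test. It also had the highest mean level of that list, 98.9 ± 12.7 TPM, followed by Igfbpl1 at 26.9 ± 0.269 and the insulin-degrading enzyme Ide at 25.8 ± 0.106 (SD, n = 2). The insulin genes were close to absent: Ins1 had 0 counts in both libraries, which allows up to 3 in each, and Ins2 had 0 in replicate 1 and 1 in replicate 2. Igfbp1, the liver-type binding protein left out of the 10 genes, had 6 counts in replicate 1 and 0 in replicate 2.

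The intracellular signalling list of 29 genes had 28 detected and 28 tested, of which 5 were higher and 2 lower in replicate 1 by the adjusted p, against the same 5.5% and 6.28% of all genes, and 21 did not pass. Among the highest levels were those of the kinase Gsk3b at 102.8 ± 5.37 TPM and the adaptor Grb2 at 81.1 ± 3.24 (SD, n = 2), and the adaptor Irs4 had the lowest mean at 0.365 TPM. Foxo1, a transcription factor that insulin and IGF signalling keeps out of the nucleus, had 2037 counts in replicate 1 and 1541 in replicate 2, a log2 ratio of 0.29 and an adjusted p of 1.25e-07 by the exact binomial test. Socs2, a feedback inhibitor of growth hormone signalling, had 33.96 TPM in replicate 1 and 26.3 in replicate 2, with a log2 ratio of 0.29 and an adjusted p of 2.57e-05 by the same exact test. The phosphatidylinositol kinase subunits Pik3r1 and Pik3r2 were higher in replicate 1 by 0.17 and 0.10 on the log2 scale. The kinase Akt2 was lower in replicate 1 at -0.16 on the same scale.

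The Igf2 mRNA-binding proteins, known as fetal RNA-binding proteins, were at or below 0.63 TPM in both libraries by alignment, so 0 of 3 were detected. By the FASTQ route 2 of 3 were, Igf2bp1 at 1.68 TPM in replicate 1 and 1.66 in replicate 2, and Igf2bp2 at 1.52 and 1.32. Among 10 neighbours of Igf2 and H19 on chromosome 7, 2 were detected, Mrpl23 at 3.76 TPM in replicate 1 and 4.35 in replicate 2, and Lsp1 at 1.62 and 2.60 by alignment. The level of Mrpl23 is uncertain, since the FASTQ route gave 59.4 TPM in replicate 1 and 69.3 in replicate 2. By alignment the muscle genes Tnnt3 and Tnni2, the tyrosine hydroxylase gene Th and Ins2 stood at or below 0.43 TPM in both, and Nctc1 was at 0.

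Markers of several other cell types differed between the libraries beside the members. Higher and lower mean past the adjusted p by the exact binomial test, which 5.5% and 6.28% of all genes tested were, and the sums run over all listed markers. Of 9 meningeal and fibroblast markers, 7 were tested, 3 were higher in replicate 1 (Col1a1 at 0.18, Col1a2 at 0.22 and Slc6a13 at 0.51 on the log2 scale) and 0 lower; their summed level was 123 TPM in replicate 1 and 111.64 in replicate 2. Of 9 choroid plexus markers, 3 were tested and 2 were lower in replicate 1, both past 2-fold; they summed to 13.45 TPM in replicate 1 and 358.51 in replicate 2, with Ttr at 189 counts and 7445. Ttr made up most of that sum, at 8.02 TPM in replicate 1 and 340.07 in replicate 2. Kl, also tested, did not pass, at 193 counts and 211. All 5 red blood cell genes were higher in replicate 1, with summed levels of 957.58 and 566.29 TPM in replicates 1 and 2, and all 5 tested of 6 myelin genes were lower, at 195 and 334.69. Of 9 microglial markers, 8 were tested and 3 were lower in replicate 1, at 154.76 TPM in replicate 1 and 171.5 in replicate 2 in sum. Endothelial markers had 2 of 8 lower, at 103.8 TPM in replicate 1 and 106.52 in replicate 2, and 0 of 7 pericyte and smooth muscle markers passed, at 106.58 and 104.25. Of 7 excitatory neuron markers 5 were lower in replicate 1, at 2293.71 TPM in replicate 1 and 2484.39 in replicate 2, and of 7 astrocyte markers 3 were lower and 1 higher, at 1424.08 and 1498.84. Of 8 GABAergic markers 1 was higher, at 441.04 TPM in replicate 1 and 432.15 in replicate 2. Of 6 Cajal-Retzius markers 3 were tested and 1, Reln, was higher, at 107.21 and 95.15 TPM in sum in replicates 1 and 2. Reln and Calb2 made up most of that sum, and Trp73 stood at 2.09 and 1.95 TPM. No list had a marker at 0 in both libraries, and the part of these cell types in the members' differences was not tested.

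**Figure D4:**
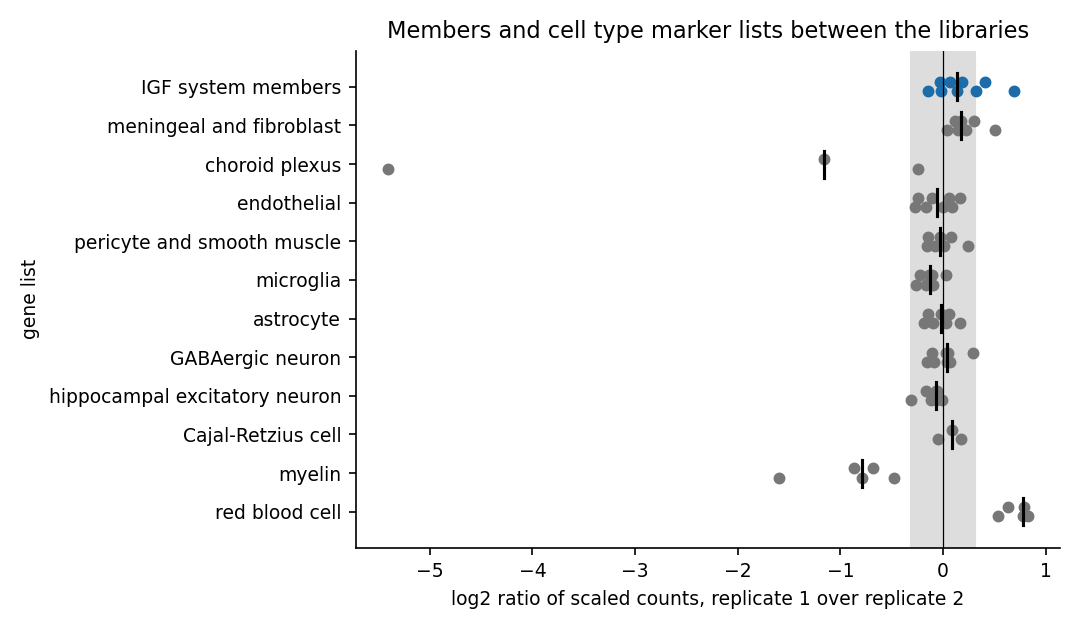
Log2 ratio of scaled counts, replicate 1 over replicate 2, for each tested gene of the IGF system (blue) and of 11 cell type marker lists (grey); black bars are list medians and the grey band spans the central 95% of all genes tested by absolute ratio. The medians lie at 0.13 for the IGF system and 0.18 for meningeal markers, and farthest from 0 at -1.16 for choroid plexus, -0.79 for myelin and 0.77 for red blood cell genes.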

How the data were processed

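Total RNA-seq tables of 2 libraries were used, 1 group in all. Expected counts and TPM per gene and per transcript were deposited for mm10 with GENCODE M21, from transcriptome alignments per the deposited descriptions; the expected counts were not normalized. A second deposited table estimated counts and TPM per transcript directly from FASTQ files, and its rows were summed per gene. TPM as deposited has 1 common total per library over every row, including spike-ins. The sources used here name neither the quantification tools nor the use of strand; the headers look like those of RSEM and kallisto.

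All 55536 annotated genes matched the annotation. The 97 spike-in rows (0.358% and 0.359% of counts in replicates 1 and 2) and 26248 rows named only by a number (2.81e-05% and 2e-05%) stayed out of scaling and tests. Expected counts were rounded to whole numbers and scaled by TMM in edgeR 4.0.16 (R 4.3.3). A contrast of 1 library with the other leaves no residual degrees of freedom for edgeR's own tests. Genes that averaged 100 counts or more were compared by a two-sided exact binomial test (scipy 1.17.1, Python 3.11.15) with Benjamini-Hochberg adjustment; a call needs an adjusted p under 0.05 and a log2 ratio of at least 1 in size. Ratios use a prior count of 0.5, pair ratios a pseudocount of 0.1 TPM, and intervals are Clopper-Pearson at 95%. No molecular identifiers are named, so the intervals cover counting error only.

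Named genes are all members and, of each pathway list, those called and the 3 highest and the lowest; genes past the adjusted p alone, the receptor Igf2r, the genes of the imprinted locus and any other named gene were picked with their values in view. Some single pathway genes are not reported here, and list counts and medians include all listed genes. Members and lists were chosen with earlier results of these data known. RefSeq promoter windows matched 8 of the 10 members. Alternatives were DESeq2 1.42.0 size factors, total counts, other count minimums, the FASTQ-based values, another pseudocount, TPM over protein-coding genes, TPM over transcripts of at least 1000 bases and single libraries.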

Additional observations from a re-analysis of the deposited data

How the results depend on the processing

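No paired analysis was possible because the labels give 1 group. At 2-fold, 0 members and 0 other pathway genes were called under either other scaling, either other count minimum and the FASTQ-based counts. By the adjusted p alone 6 members and 8 other pathway genes passed, against 11.8% of all genes tested. With a mean count of at least 10, 6 and 8 passed, against 8.78%. With FASTQ-based counts 5 and 8 passed, against 11.9%. Total counts gave 6 and 7, and the share over all genes was not computed for that setting. The 3 combined settings were added after seeing the data. No member's log2 ratio changed sign under either other scaling, the FASTQ-based counts or, for Igf2, with the counts of Gm49394 added. Igfbp4 lost its adjusted p on FASTQ-based counts, and the cause was not tested. Igf1 lost it when all genes with a count were tested, at 0.0707 by the exact binomial test. All 10 mean TPM values moved by more than their SD between the libraries (n = 2) under FASTQ-based TPM and over protein-coding genes. Over long transcripts only, a setting added after seeing the data, 6 of 10 moved by more than that SD. Of the leading transcript shares, 5 of 10 moved under the FASTQ-based table, that of Igf2-201 to 17.3% from 30.4%. With 2 libraries the log2 ratio cannot be computed without either of them, and the low counts of Igfbp6, Insr-203 and the Igf1 tail exon limit what they show.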
